A study of Canis lupus familiaris with 13 samples.

Results

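The 7 genes MYH7, MYH2, MYH1, MYH4, MYH3, MYH8 and MYH7B encode sarcomeric myosin heavy chains, and they were taken by symbol from a table of 30951 dog genes, in which each had 1 row and all 7 passed the filter on low counts. The table came from RNA sequencing of skeletal muscle of 4 wild-type dogs (Canis lupus familiaris) aged 9 to 10 months. Each biopsy was cut from the biceps femoris, a thigh muscle, under local anaesthesia. There were 13 libraries: insulin-stimulated sample 1 from dogs 1 to 4 (n = 4), insulin-stimulated sample 2 from dogs 1 to 4 (n = 4), insulin-stimulated sample 3 from dogs 1 and 2 (n = 2), and basal sample 0 from dogs 2, 3 and 4 (n = 3). The labels do not say what the sample numbers stand for, how insulin was given or where in the muscle each biopsy lay. Every basal library is a sample 0 and no insulin library is, so stimulation cannot be told apart from sample number.

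Myosin heavy chain is the motor protein of the thick filament, and the isoform that a fibre makes sets how fast it shortens and how much ATP it uses. MYH7 is the slow isoform of type I fibres, MYH2 the isoform of fast oxidative type IIA fibres and MYH1 that of fast type IIX fibres. MYH4 is the type IIB isoform, which is abundant in rodent limb muscle and in dogs is known mainly from eye and laryngeal muscles. MYH3 and MYH8 are the embryonic and perinatal isoforms, made in developing and regenerating fibres, and MYH7B is a relative of MYH7 whose transcript carries a microRNA in its intron.

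Libraries held 45200416 to 81948641 counts, and the 7 genes together took from 1.92% of them (dog 1 insulin sample 2) to 5.82% (dog 2 insulin sample 1). The lowest member count in any library was 614, so counting error was small: the 95% Wilson interval of a member's share of the summed counts was at most 0.0778 percentage points to either side. That interval covers counting error only, since the reads carried no molecular identifiers. Dog 1 insulin sample 2 resembled the rest least, with a mean r of 0.959 to them (0.969 for the next, the dog 3 basal library). Some of the results that it moves are given with and without it, and others only with it. The markers of muscle fibres ACTA1, CKM, MB, TTN, NEB, DES and RYR1 were all detected, with summed levels of 220929 to 389654 CPM (counts scaled to an equal total per library) in insulin libraries and 202635 to 278439 CPM in basal libraries.

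The summed counts of the 7 genes were almost wholly MYH7, MYH2 and MYH1, in a mix that differed from dog to dog. MYH4, MYH3, MYH8 and MYH7B together made up 0.209% to 0.781% of the summed counts. Shares here are of read counts and are not corrected for transcript length, so they describe how the counts divide and not numbers of molecules. The members are close relatives with long near-identical stretches, and the way reads shared between them were counted is not given in the sources used here, so reads of 1 member may stand under another.

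**Figure D1:**
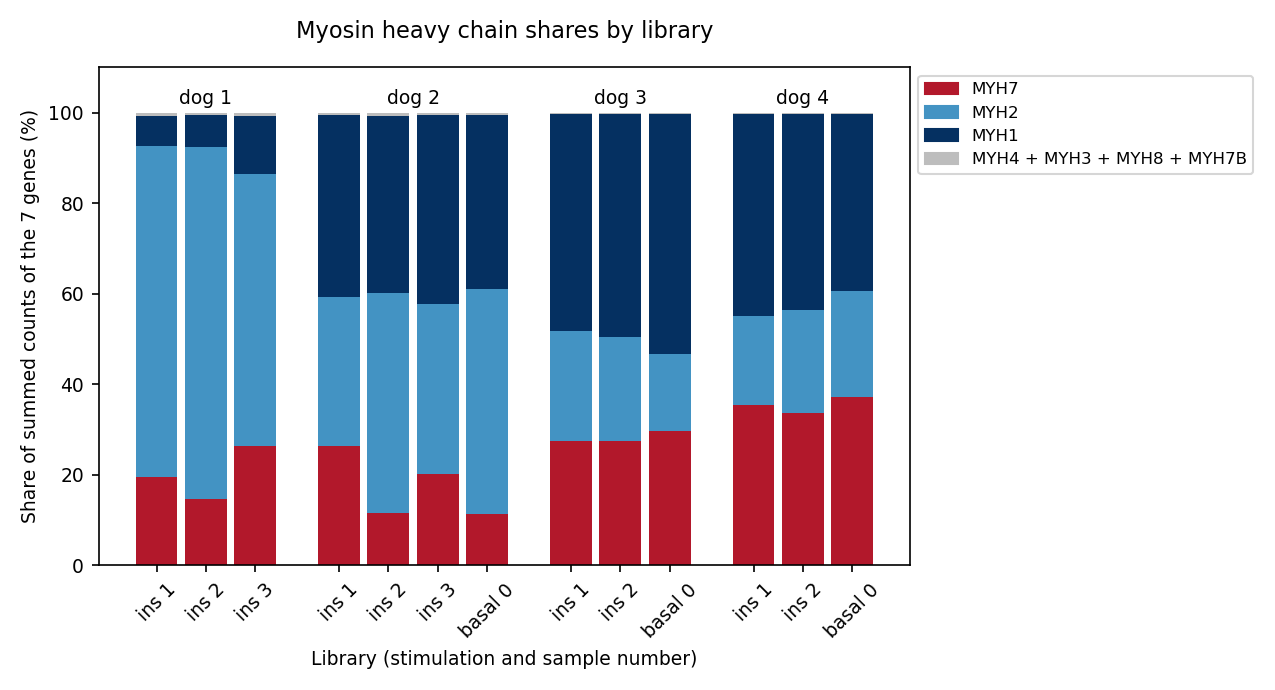
Stacked bars give, for each of the 13 libraries, the percent of the summed counts of the 7 genes that fell on MYH7, MYH2, MYH1 and the other 4 members together. Libraries are grouped by dog, with insulin samples left of basal sample 0, and the 3 bars of dog 1 hold 60.1% to 77.6% MYH2 and 6.63% to 12.7% MYH1, unlike those of the other dogs.

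MYH7 (ENSCAFG00000011619) took 19.6%, 14.7% and 26.4% of the summed counts in insulin samples 1, 2 and 3 of dog 1. In dog 2 it took 26.3%, 11.7% and 20.1% in insulin samples 1, 2 and 3, and 11.4% in the basal library. In dog 3 it took 27.5% and 27.4% in insulin samples 1 and 2 and 29.7% in the basal library, and in dog 4 it took 35.5% and 33.6% in insulin samples 1 and 2 and 37.2% in the basal library. The slow isoform's share was thus highest in dog 4 and spread most within dog 2.

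MYH2 (ENSCAFG00000030337) held 73.1%, 77.6% and 60.1% in insulin samples 1, 2 and 3 of dog 1. It held 33.0%, 48.5% and 37.7% in insulin samples 1, 2 and 3 of dog 2 and 49.7% in its basal library. In dogs 3 and 4 it held 24.4% and 23.0%, and 19.5% and 22.8%, in insulin samples 1 and 2, against 17.0% and 23.4% in the basal libraries of those dogs. The type IIA share of dog 1 did not overlap that of any other dog, and every library of dog 2 lay above every library of dogs 3 and 4.

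MYH1 (ENSCAFG00000042770) held 6.63%, 7.12% and 12.7% in insulin samples 1, 2 and 3 of dog 1. In dog 2 it held 40.1%, 39.2% and 41.6% in insulin samples 1, 2 and 3 and 38.3% in the basal library. In dogs 3 and 4 it held 47.8% and 49.4%, and 44.8% and 43.4%, in insulin samples 1 and 2, against 53.1% and 39.2% in the basal libraries of those dogs. The type IIX share was lowest in dog 1 and highest in dog 3. As a ratio of counts, MYH1 to MYH2 was 0.0908 to 0.210 in dog 1, 0.771 to 1.22 in dog 2, and 1.68 to 3.13 in dogs 3 and 4.

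The comparison of insulin-stimulated with basal libraries asked whether the stimulation goes with a different level of any myosin heavy chain within a dog. None of the 7 members passed the test (edgeR quasi-likelihood test with dog as a block, threshold 0.05 on the Benjamini-Hochberg adjusted p over 14629 genes), where 0.137% of all genes tested were called, 4 higher and 16 lower. At an unadjusted p under 0.05 there were also 0 of 7 members, against 4.12% of all genes, and DESeq2 called 0 of 7. The members' median log2 fold change was 0.05, against -0.00 for all genes tested.

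MYH7, the slow isoform, had 14733, 6007 and 7533 CPM in insulin samples 1, 2 and 3 of dog 2 and 6112 CPM in its basal library. In dog 3 it had 12821 and 8079 CPM in insulin samples 1 and 2 and 13670 CPM in the basal library, and in dog 4 it had 16370 and 15812 CPM in insulin samples 1 and 2 and 17080 CPM in the basal library. Dog 1, which has no basal library and enters only the estimate of spread here, had 9424, 3491 and 7520 CPM in insulin samples 1, 2 and 3. The insulin and basal ranges overlapped, and the log2 fold change within dogs was 0.05 ± 0.34 (SE; edgeR adjusted p = 1), with a 95% interval of -0.68 to 0.77.

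The fast adult isoforms gave like results. MYH2 averaged 16601 ± 8442 CPM in insulin libraries (SD, n = 10) and 15029 ± 10073 CPM in basal libraries (SD, n = 3), and over dogs 2, 3 and 4, which have basal libraries, the insulin mean was 13634 ± 6259 CPM (SD, n = 7). Its log2 fold change within dogs was -0.15 ± 0.26 (SE; 95% interval -0.71 to 0.41). MYH1 averaged 14467 ± 8444 CPM in insulin libraries (SD, n = 10) and 20986 ± 3269 CPM in basal libraries (SD, n = 3). The insulin mean of MYH1 includes dog 1, whose 3 libraries are all insulin libraries. Over dogs 2, 3 and 4 the insulin mean was 19456 ± 3131 CPM (SD, n = 7), and the log2 fold change within dogs was -0.10 ± 0.24 (SE; 95% interval -0.61 to 0.40).

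Among the scarce members, MYH4 averaged 57.6 ± 54.7 CPM in insulin libraries (SD, n = 10) and 66.0 ± 76.7 CPM in basal libraries (SD, n = 3), and over dogs 2, 3 and 4 the insulin mean was 74.3 ± 57.7 CPM (SD, n = 7). Its log2 fold change within dogs was 0.20 ± 0.43 (SE; 95% interval -0.72 to 1.12). The embryonic isoform MYH3 had a log2 fold change of -0.34 ± 0.37 (SE; 95% interval -1.13 to 0.45), the perinatal isoform MYH8 of 0.18 ± 0.45 (SE; 95% interval -0.78 to 1.14), and MYH7B of 0.30 ± 0.29 (SE; 95% interval -0.32 to 0.91). All had an adjusted p of 1. Directions were mixed, and each interval included 0.

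The MYH7 share, which does not depend on library scaling, gave the same picture. Its mean under insulin minus its basal value was 7.93 percentage points in dog 2, -2.25 in dog 3 and -2.65 in dog 4. The mean of these was 1.01 points (exact permutation test of which library of each dog was the basal one, two-sided, p = 0.861, over 36 arrangements that allow a smallest p of 0.0278). Insulin libraries of dog 2 were higher in MYH7 share, and those of dogs 3 and 4 lower, than the basal library of the same dog.

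**Figure D2:**
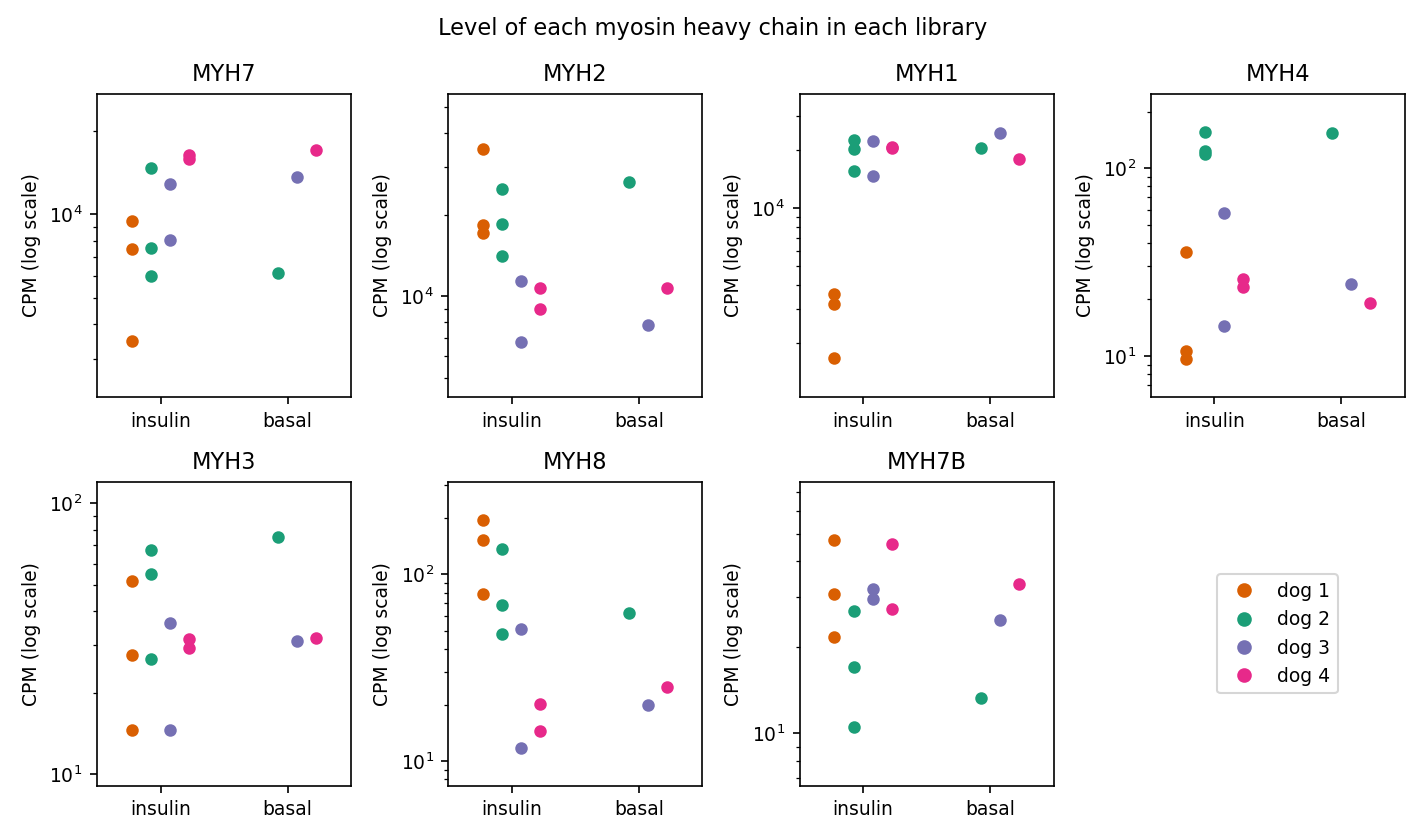
Each panel plots 1 member's level in CPM on a log scale, with a point for every library, insulin left of basal, coloured by dog. The insulin and basal points of a dog lie near each other for MYH1, with dog 1 at 1685 to 3603 CPM and the other dogs at 14584 to 24483 CPM.

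Split by sample number, insulin sample 1 against basal sample 0 gave 0 of 7 members called (edgeR), where 0% of all genes were called. At an unadjusted p under 0.05 there were 0 of 7 members against 2.99% of genes, and DESeq2 called 77 genes and no member. Log2 fold changes ran from 0.06 ± 0.26 (SE) for MYH2 to 0.78 ± 0.37 (SE) for MYH4, with an adjusted p of 1 for each. Insulin sample 2 against basal sample 0 gave 0 of 7 members called by edgeR, where 0.0479% of genes were. At an unadjusted p under 0.05 there was 1 of 7 members, MYH3, against 4.95% of genes, and DESeq2 called 141 genes and no member. The log2 fold change of MYH3 was -0.72 ± 0.31 (SE), and its adjusted p was 0.955. For the others it ran from -0.42 ± 0.28 (SE) for MYH7 to 0.20 ± 0.30 (SE) for MYH7B. Both comparisons use the same basal libraries.

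Insulin sample 2 against insulin sample 1 could be read in all 4 dogs. MYH7 differed by -1.43, -1.29, -0.67 and -0.05 (log2 CPM, sample 2 minus sample 1) in dogs 1, 2, 3 and 4, so it was lower in sample 2 in 4 of 4 dogs, though nearly equal in dog 4. The log2 fold change was -0.88 ± 0.26 (SE; 95% interval -1.45 to -0.31), with an unadjusted p of 0.00590 and an adjusted p of 0.902 by edgeR, a rank of 11 by p among the 14629 genes. MYH4 had -1.05 ± 0.33 (SE; adjusted p = 0.902) and MYH3 -0.82 ± 0.29 (SE; adjusted p = 0.902). No member and 0% of all genes were called. At an unadjusted p under 0.05 there were 3 of 7 members against 3.38% of genes, and DESeq2 called 96 genes and no member (its lowest adjusted p for a member was 0.267, for MYH7).

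All 7 members had a negative log2 fold change in this comparison, with a median of -0.42, against -0.02 over all genes tested. The remaining values were -0.39 ± 0.23 for MYH1, -0.26 ± 0.23 for MYH2, -0.42 ± 0.49 for MYH8 and -0.29 ± 0.28 for MYH7B (SE). MYH1 was also lower in sample 2 in every dog (log2 differences of -0.92, -0.15, -0.61 and -0.02 in dogs 1 to 4). So was MYH3 (-1.83, -0.29, -1.31 and -0.11). MYH2, MYH8, MYH4 and MYH7B differed in sign between dogs. In dogs 2 and 4 sample 2 was above sample 1 for MYH2 (log2 differences of 0.44 and 0.25) and MYH8 (0.99 and 0.49), and in dog 4 also for MYH4 (0.14) and MYH7B (0.76). The summed level of the 7 genes differed by -1.02, -0.12, -0.66 and 0.03 (log2) in dogs 1 to 4. Without dog 1 insulin sample 2 the MYH7 value was -0.70 and that of MYH7B -0.02, and leaving out other single libraries moved MYH7 between -0.63 and -1.11.

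Other sarcomere genes had values of either sign in this comparison, and none was called. TTN, the giant spring protein of the sarcomere, had a log2 fold change of -0.51 ± 0.21 (SE) in sample 2 against sample 1. RYR1, the calcium release channel, had -0.56 ± 0.23 (SE). Both are among the 7 muscle fibre markers, of which 5 were negative, with a median of -0.14. ACTA1 (0.28 ± 0.19) and CKM (0.29 ± 0.23; SE) of that list were positive. Of the 10 partners of slow myosin 6 were negative and the rest positive, with a list median of -0.09. The lowest were ATP2A2 (-0.63 ± 0.28) and TNNI1 (-0.42 ± 0.17), and the highest was MYL2 (0.26 ± 0.25; SE). Of the 10 partners of fast myosin 2 were negative, ATP2A1 (-0.20 ± 0.22) and MYBPC2 (-0.09 ± 0.15; SE), with a list median of 0.38. Positive values included those of TNNT3, the fast troponin T, 0.40 ± 0.18, MYOZ1, which ties the Z-disc to calcineurin, 0.46 ± 0.20, and ACTN3, the fast-fibre actinin, 0.41 ± 0.15 (SE; adjusted p = 0.902 for each). TTN, RYR1, ACTA1, CKM, ATP2A2, TNNI1, MYL2 and MYBPC2 were picked out after their values were seen. Without a call, values were also negative for 5 of 5 endothelial markers (median -0.78) and 5 of 5 markers of smooth muscle and pericytes (median -0.54). RNA quality measures were not among the data used here, and their part and that of other cells in these differences was not tested.

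**Figure D3:**
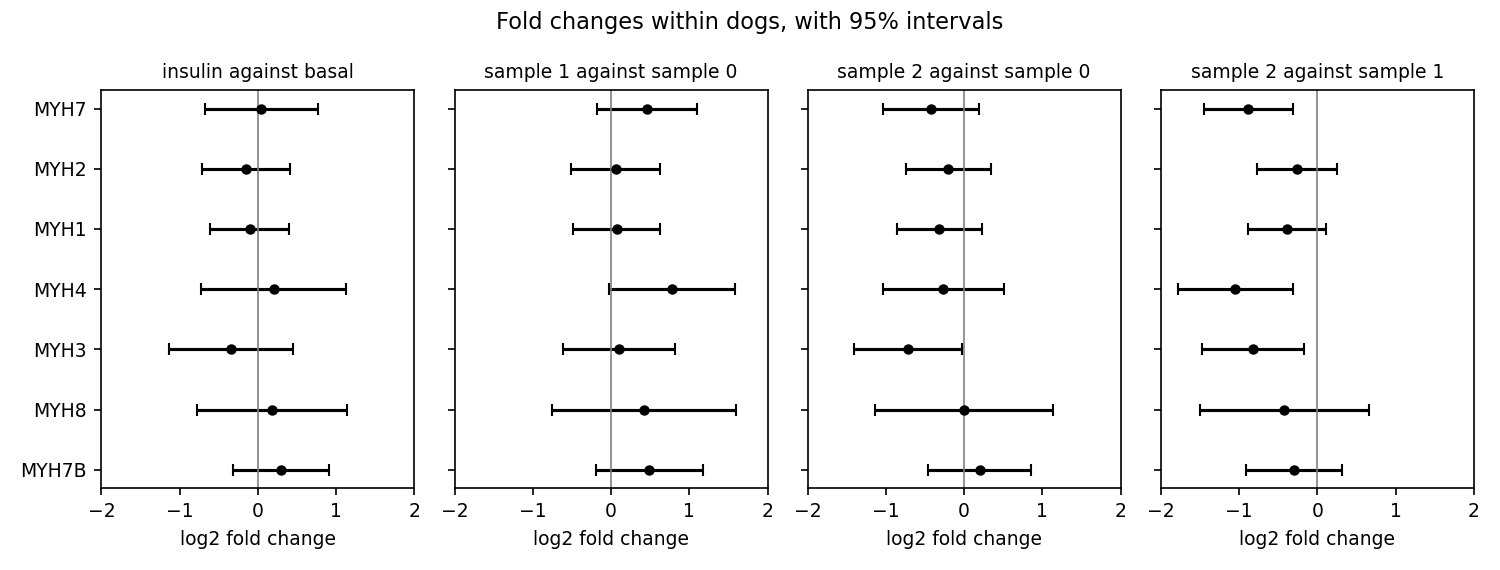
Points give the log2 fold change of each member within dogs and bars its 95% interval, in 4 panels, 1 for each comparison of stimulation or sample number. In sample 2 against sample 1 the points of all 7 members lie below 0, with intervals clear of 0 for MYH7, MYH4 and MYH3, and in insulin against basal every interval crosses 0.

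The dogs themselves differed in myosin heavy chains. MYH1, MYH4 and MYH2 passed the joint edgeR test for differences among the 4 dogs, which is 3 of 7 members, where 3.13% of all genes tested were called. MYH1 had a range of 2.87 between the highest and lowest dog on the log2 scale (adjusted p = 0.00157), MYH4 of 3.15 (adjusted p = 0.00170) and MYH2 of 1.65 (adjusted p = 0.0143). At an unadjusted p under 0.05 there were 7 of 7 members, against 15.6% of genes. The median range was 1.65 for the members and 0.65 for all genes. Differences between dogs cannot be told apart from differences between biopsy sites or handling of a dog's samples, and in biopsies fewer fibres of a type and less RNA per fibre cannot be told apart.

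MYH1, the type IIX isoform, was low in dog 1. It had 3184, 1685 and 3603 CPM in insulin samples 1, 2 and 3 of that dog. Dog 2 had 22461, 20182 and 15571 CPM in insulin samples 1, 2 and 3 and 20467 CPM in the basal library, dog 3 had 22283 and 14584 CPM in insulin samples 1 and 2 and 24483 CPM in the basal library, and dog 4 had 20666 and 20447 CPM in insulin samples 1 and 2 and 18008 CPM in the basal library. No library of dog 1 overlapped those of other dogs. Between pairs of dogs, a contrast added after the data were seen, dog 1 differed from dog 2 by a log2 fold change of -2.82 ± 0.28 (SE; edgeR adjusted p = 0.000981, in a contrast that called 0.882% of genes), from dog 3 by -2.87 ± 0.31 (SE; adjusted p = 0.00198, 1.41% of genes called) and from dog 4 by -2.85 ± 0.31 (SE; adjusted p = 0.00195, 1.32% called). Dog 2 against dog 3, dog 2 against dog 4 and dog 3 against dog 4 gave -0.04, -0.03 and 0.02, with 95% intervals between -0.60 and 0.59, and 0.417% of genes were called in the last of these. Without dog 1 the MYH1 range was 0.09 and the adjusted p among dogs was 0.938.

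MYH2, the type IIA isoform, split the dogs into a higher and a lower pair. It had 35076, 18370 and 17120 CPM in insulin samples 1, 2 and 3 of dog 1, and 18478, 25000 and 14110 CPM in those of dog 2, with 26537 CPM in the basal library of dog 2. Dog 3 had 11364 and 6782 CPM in insulin samples 1 and 2 and 7812 CPM in the basal library, and dog 4 had 8993 and 10715 CPM in insulin samples 1 and 2 and 10738 CPM in the basal library. Every library of dogs 1 and 2 lay above every library of dogs 3 and 4. The call was less firm than that of MYH1: the contrasts of dog 1 with dog 3 (1.65 ± 0.29, adjusted p = 0.0196), dog 1 with dog 4 (1.39 ± 0.29, adjusted p = 0.0459) and dog 2 with dog 3 (1.45 ± 0.26, adjusted p = 0.0206, 1.76% of genes called) passed by edgeR, and dog 2 with dog 4 did not (1.19 ± 0.26, adjusted p = 0.0515, 1.45% of genes called; SE). Leaving out dog 1 insulin sample 1, the dog 2 basal library or dog 3 insulin sample 2 gave an adjusted p among dogs of 0.0570, 0.0770 and 0.0606. It was 0.114 without dog 2, 0.107 without dog 3 and 0.0527 without dog 4.

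MYH4, the type IIB isoform, was high in dog 2. It had 156, 124 and 119 CPM in insulin samples 1, 2 and 3 and 154 CPM in the basal library of that dog. Dog 1 had 35.8, 9.66 and 10.6 CPM in insulin samples 1, 2 and 3, dog 3 had 57.8 and 14.4 CPM in insulin samples 1 and 2 and 24.3 CPM in the basal library, and dog 4 had 23.3 and 25.7 CPM in insulin samples 1 and 2 and 19.2 CPM in the basal library. The 4 libraries of dog 2 stood above all others, and the other dogs overlapped. Dog 1 differed from dog 2 by -3.15 ± 0.40 (SE; edgeR adjusted p = 0.00482), and dog 2 from dogs 3 and 4 by 2.44 ± 0.39 (adjusted p = 0.0105) and 2.69 ± 0.39 (SE; adjusted p = 0.00666). Without dog 2 the range was 0.68 and the adjusted p was 0.718. As a ratio, there were 0.294 to 1.12 MYH4 counts per 100 MYH1 counts in dog 1, 0.615 to 0.762 in dog 2 and 0.0989 to 0.259 in dogs 3 and 4. MYH4 and MYH1 are next to each other in the RefSeq annotation of the UU_Cfam_GSD_1.0 assembly, in the order MYH13, MYH8, MYH4, MYH1, MYH2, MYH3.

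For MYH8, MYH7, MYH3 and MYH7B the joint edgeR test did not pass, with adjusted p of 0.0603, 0.106, 0.152 and 0.193. MYH8 passed without dog 2 insulin sample 2 (adjusted p = 0.0350) and without dog 3 insulin sample 1 (adjusted p = 0.0419). The perinatal isoform MYH8 averaged 142 ± 59.3 CPM in dog 1 (SD, n = 3), 78.9 ± 39.7 CPM in dog 2 (SD, n = 4), 27.6 ± 20.7 CPM in dog 3 and 19.8 ± 5.25 CPM in dog 4 (SD, n = 3 each), a range of 2.82 on the log2 scale. Every library of dog 1 had more MYH8 than every library of dogs 3 and 4, and dogs 1 and 2 overlapped. MYH7 averaged 6812 ± 3029 CPM in dog 1 (SD, n = 3), 8596 ± 4150 CPM in dog 2 (SD, n = 4), 11523 ± 3013 CPM in dog 3 and 16421 ± 636 CPM in dog 4 (SD, n = 3 each). Its largest contrast, dog 1 against dog 4, was -1.44 ± 0.33 (SE; adjusted p = 0.0666). MYH3 had a range of 1.24 and was highest in dog 2, at 55.9 ± 21.2 CPM (SD, n = 4), and MYH7B had a range of 1.07 and was lowest in dog 2, at 16.9 ± 7.11 CPM (SD, n = 4).

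DESeq2 called all 7 members among dogs, where it called 1283 genes in all. The number of genes that DESeq2 tested is not given here, so its 7 members are not set against a share of all genes. Without dog 1 insulin sample 2, edgeR called 5 members, adding MYH3 (adjusted p = 0.0227) and MYH7B (adjusted p = 0.0388) to MYH1, MYH2 and MYH4. Over the fits with 1 library left out, edgeR called 193 to 625 genes in all among dogs, against 458 with every library. The count for the fit without dog 1 insulin sample 2 alone is not given here. Its 5 members are thus not set against the share of all genes. As shares of the summed counts, 98.0% of the variance of MYH1 lay between dogs, 94.9% of that of MYH4 and 92.2% of that of MYH2. The between-dog part was 87.2% for MYH8, 77.7% for MYH7B, 73.6% for MYH7 and 53.2% for MYH3. For the MYH7 share the exact permutation test over all 1201200 assignments of the 13 libraries to dogs gave p = 0.00752, and without dog 4 the between-dog part was 47.5% (exact permutation p = 0.108).

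The partners of slow and fast myosin were compared among dogs in lists chosen with earlier results of these data known. Of 10 slow partners 2 were called, TPM3, the slow tropomyosin (range 1.47, adjusted p = 0.0204), and MYL3, the slow essential light chain (range 1.19, adjusted p = 0.0328), with a list median of 0.79. TPM3 averaged 1414 ± 292, 1394 ± 470, 2774 ± 97.7 and 3405 ± 1031 CPM in dogs 1, 2, 3 and 4 (SD, n = 3, 4, 3 and 3), so that dogs 3 and 4 had the higher means, as they had for MYH7. TNNI1, the slow troponin I, had a range of 0.78 (adjusted p = 0.108). Of 10 fast partners 1 was called, ACTN3 (range 1.01, adjusted p = 0.0248), which was highest in dog 2 at 2844 ± 726 CPM (SD, n = 4). MYLPF, the fast regulatory light chain, had a range of 0.83 (adjusted p = 0.0753) and CASQ1, the fast-fibre calcium store protein, of 0.90 (adjusted p = 0.0563), with a list median of 0.67.

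**Figure D4:**
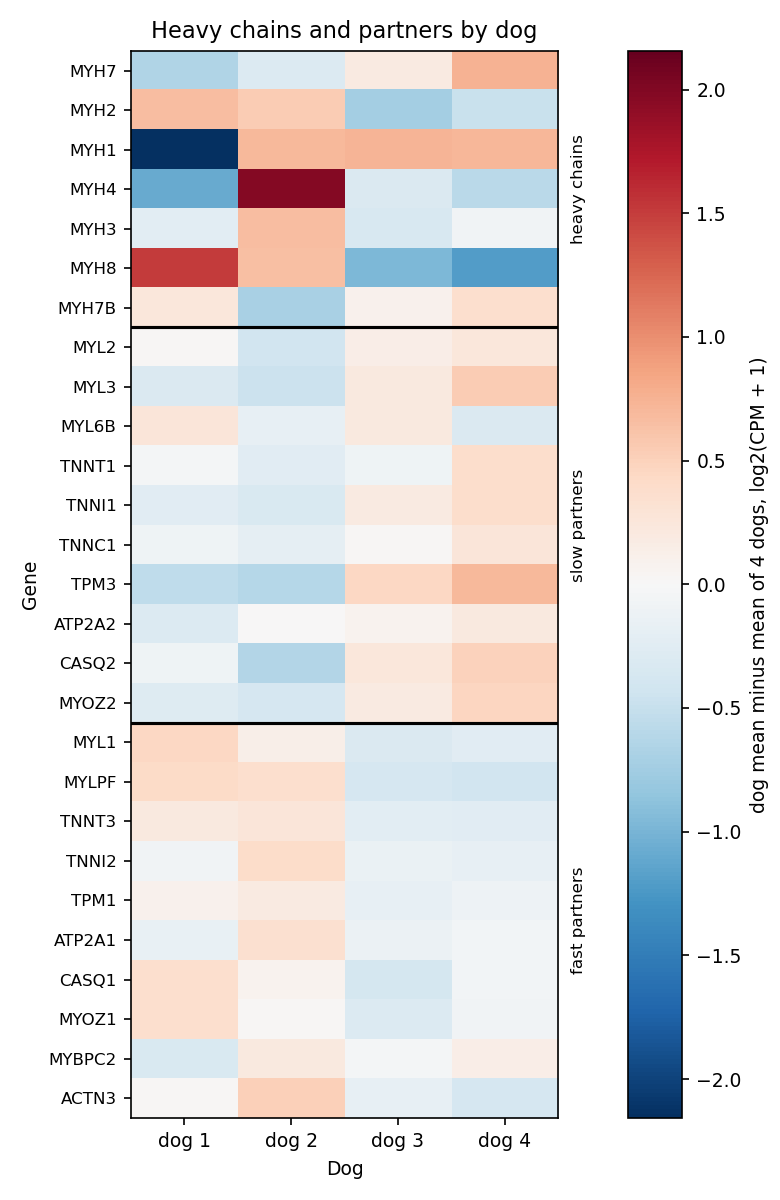
Colours give the mean of each dog minus the mean of the 4 dogs in log2(CPM + 1) for the 7 heavy chains, the slow partners and the fast partners. MYH1 in dog 1 (-2.16) and MYH4 in dog 2 (1.97) are the strongest colours, and the slow partners have medians of -0.17, -0.35, 0.19 and 0.39 in dogs 1 to 4.

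Of 12 genes for myosin folding and thick filament assembly, 1 was called among dogs. MYBPH, a myosin-binding protein, averaged 5.63 ± 5.61, 5.71 ± 4.97, 66.8 ± 23.1 and 34.8 ± 8.91 CPM in dogs 1, 2, 3 and 4 (SD; range 4.54, edgeR adjusted p = 0.00701), higher in the dogs with the lower MYH2. The Pearson r of MYBPH with MYH2 in log2 CPM was -0.83 over the 13 libraries and -0.18 after removing each dog's mean. UNC45B, the myosin chaperone, had a range of 0.78 and was not called (adjusted p = 0.117). Of 24 fibre type regulators 2 were called: TEAD1, a factor that binds muscle gene enhancers, with 83.1 ± 33.5, 43.1 ± 5.46, 92.9 ± 8.38 and 32.9 ± 8.28 CPM in dogs 1, 2, 3 and 4 (SD; adjusted p = 0.0224), and PPARD, a nuclear receptor of fatty acid use (range 1.70, adjusted p = 0.0471).

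Of 13 genes of embryonic muscle and regeneration 1 was called among dogs, TNNT2, the cardiac and embryonic troponin T (range 3.01, adjusted p = 0.0306), and it was highest in dog 3 at 8.43 ± 2.14 CPM (SD, n = 3), a dog with low MYH8. EdgeR called 0 of 8 turnover genes, 0 of 6 other myosin heavy chains and 0 of 3 spindle genes. At an unadjusted p under 0.05 these were 3 (SKP1, TRIM63 and CAPN3), 1 (MYH11) and 0 genes. The spindle gene CALB1 had 0 counts in all libraries. Markers of other cells also differed among dogs in places: of 4 macrophage and 4 neutrophil markers 1 each was called, MRC1 (9.22 ± 1.59 CPM in dog 1, against 2.93 ± 0.88, 3.00 ± 1.42 and 2.77 ± 0.67 CPM in dogs 2, 3 and 4; SD) and S100A12 (4.44 ± 1.75 CPM in dog 1, against 0.78 ± 0.34, 1.38 ± 0.96 and 2.36 ± 1.06 CPM in dogs 2, 3 and 4; SD). Of 5 endothelial markers 0 were called. Their summed levels were 67.6 to 148 CPM in dog 1, 85.8 to 271 CPM in dog 2, 160 to 311 CPM in dog 3 and 123 to 216 CPM in dog 4. The part of these markers of other cells in the myosin differences was not tested.

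In insulin against basal, 1 of the 8 turnover genes was called. TRIM63, a ubiquitin ligase that acts on myosin heavy chains, had 36.1 ± 13.4 CPM in insulin libraries (SD, n = 10) and 183 ± 47.9 CPM in basal libraries (SD, n = 3), and its log2 fold change of -2.22 ± 0.26 (SE) passed the edgeR test (adjusted p = 0.00238). FBXO32, the other muscle atrophy ligase, had a log2 fold change of -1.35 ± 0.56 (SE) and an adjusted p of 1. Of the 13 embryonic and regeneration genes 1 was called: MYOD1, the master factor of muscle cell fate, had 10.2 ± 4.36 CPM in insulin libraries (SD, n = 10) and 1.83 ± 1.00 CPM in basal libraries (SD, n = 3), with a log2 fold change of 2.76 ± 0.36 (SE) and an adjusted p of 0.00561. In the same comparison 4 of 4 neutrophil markers had negative log2 fold changes (median -1.26, 3 at an unadjusted p under 0.05, 0 called by edgeR), with summed levels of 22.5 to 63.7 CPM in insulin libraries and 29.9 to 72.8 CPM in basal libraries. Both red blood cell markers tested were also negative (median -2.03), with summed levels of 0.33 to 1.69 CPM in insulin libraries and 1.13 to 3.51 CPM in basal libraries. Their part in the values of TRIM63 and MYOD1 was not tested. For both genes, stimulation also cannot be told apart from sample number. The slow partners, fast partners, folding genes, regulators, other heavy chains and spindle genes had 0 calls by edgeR, and at an unadjusted p under 0.05 the regulators had 2, PPARGC1A and VGLL2, and the other lists 0. PPARGC1A, a coactivator of oxidative fibre genes, had the lowest p among the regulators, with a log2 fold change of 0.67 ± 0.21 (SE) and an adjusted p of 0.650.

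Among the other myosin heavy chains with a row, the non-muscle chains MYH9, MYH14 and MYH10 had median levels of 45.9, 46.1 and 2.07 CPM over the 13 libraries. The median was 15.0 CPM for the smooth muscle chain MYH11, 13.4 CPM for the extraocular chain MYH13 and 0.19 CPM for MYH15. MYH13, which lies beside MYH8 in the annotation named above, had a log2 fold change of -1.17 ± 0.33 (SE; unadjusted p = 0.00494, adjusted p = 0.902) in sample 2 against sample 1. MYH6 and MYH16 are not analysed here.

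Among genes with a symbol and a mean of at least 10 CPM, those whose level followed each member most closely were ranked by Pearson r of log2 CPM over the 13 libraries, with the r after removing each dog's mean beside it. These values describe the libraries, which share dogs, and carry no test. MYH7 was followed by NNT (0.93, and 0.88 within dogs), a mitochondrial proton-linked transhydrogenase, and CS (0.92 and 0.85), the citrate synthase of the Krebs cycle. Next came MMS19 (0.91 and 0.86), UBR4 (0.91 and 0.95) and NUP188 (0.90 and 0.90). Within dogs, the r of MYH7 with the slow partners ran from -0.37 (MYL2) to 0.82 (ATP2A2). With the fast partners it ran from -0.96 (MYL1) to 0.43 (ATP2A1). MYH1 was followed by IL13RA1 (0.96, but 0.28 within dogs), PDPR (0.94 and 0.68), CERS5 (0.92 and -0.14), TMEM131L (0.90 and 0.26) and ACO1 (0.90 and 0.86), so 3 of its 5 mostly traced the dogs.

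MYH2 was followed by HPS3 (0.91 and 0.70), MYH8 (0.90 and 0.72), PTPA (0.89 and 0.66), ALPK2 (0.87 and 0.65) and DEPTOR (0.86 and 0.53). MYH8 in turn had MYH2 first (0.90 and 0.72), then SLCO3A1 (0.87 and 0.67), ACOX2 (0.86 and 0.30), PTPA (0.86 and 0.67) and AHCYL2 (0.85 and 0.60). There were 0.160 to 0.897 MYH8 counts per 100 MYH2 counts, so the pair did not keep 1 fixed ratio. MYH4 was followed by TMOD1 (0.91 and 0.57), which caps actin filaments, and then by RAB7A, TOB1, RFTN1 and TTF2. MYH3 was followed by ATP2A1 (0.93 and 0.90), the fast-fibre calcium pump, MIA3 (0.93 and 0.92), SYNPO2, RAB7A and STIM1, and MYH7B by SUN1 (0.89 and 0.77), KAT2A, EFCAB14, FTSJ3 and MIGA2.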

How the data were processed

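RNA was measured in 13 libraries made with the SMARTseq v4 and Nextera XT kits, then sequenced on a NovaSeq instrument, per the labels' protocols. The deposited table held raw read counts per gene, made by the authors, and a second set of columns with a normalized signal, which was not used in any test. The submitters' processing notes name Bowtie 0.12.2 and CanFam3.1. The counting program, annotation release and strand setting are not given in the sources used here, and the kit does not mark strand.

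Raw counts were fitted with edgeR 4.0.16 in R 4.3.3 (filterByExpr, TMM scaling, robust quasi-likelihood), leaving 14629 genes. Stimulation was modelled with dog as a block, and sample number with dog as a block; the test among dogs used the 3 dog terms of the sample number model. Benjamini-Hochberg adjustment covered every gene tested, and calls needed an adjusted p under 0.05. CPM are counts scaled by the TMM-adjusted library total. Alternatives were DESeq2 1.42.0, RLE scaling, no filter, no block, counts summed per dog, subsets of sample numbers and each library or dog left out. The scripts were tested on simulated data.

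Dogs pair the libraries because the labels assign several libraries to 1 animal. Between libraries of different groups, deviations from group means correlated with a median r of 0.196 within dogs (15 pairs) and -0.0711 across dogs (47 pairs). For 10 of 13 libraries the best match among libraries of other groups was a library of their own dog. Chi-square per gene between libraries of a group or dog was 47.2 to 726, so no library was a duplicate. The fits take a dog's insulin libraries as separate samples, and where they are repeat biopsies or preparations the p-values measure only the spread between them. Besides all members, the text names the other myosin heavy chains, the genes of lowest p in each list (4 in insulin against basal, 3 among dogs) and the 5 genes of highest r with each member. The members and lists were chosen with earlier results of these data known. The parts of the list rule not printed had adjusted p above the threshold. The values of 1 regulator that the rule took are left out of the text.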

Additional observations from a re-analysis of the deposited data

Results flagged for a closer look

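In groups of 4 libraries, 28 sets of values were examined for a library far from its nearest neighbour. The gap had to take most of the group's range, and 4 were found. For independent sets chance gives about 1 in 20. These sets are not independent, since they hold CPM and shares from the same libraries. Both MYH4 results below come from dog 2 insulin sample 2. MYH1 in insulin sample 1 had 3184 CPM in dog 1, and the nearest other dog had 20666 CPM. MYH4 in insulin sample 2 had 124 CPM in dog 2, and the nearest other dog had 25.7 CPM. The MYH4 share of the summed counts in insulin sample 2 was 0.241% in dog 2, with 0.0546% in the nearest other dog. The MYH7B share in insulin sample 2 was 0.0330% in dog 2, with 0.0916% in the nearest other dog.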

How the results depend on the processing

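Over 532 alternative values of the members in the 4 comparisons of stimulation or sample number, 0 passed the threshold (lowest adjusted p = 0.267), 491 kept their direction and 41 turned. The number of genes called in insulin against basal was 140 with no filter, 103 with DESeq2, 6 with no replicate block, 3 with counts summed per dog and 4 to 28 with a library or dog left out. In sample 1 against sample 0 it was 4 with RLE scaling, 16 with no filter, 77 with DESeq2, 6 from the libraries of the 2 sample numbers alone and 0 to 8 with a library left out. In sample 2 against sample 0 it was 28 with no filter, 141 with DESeq2, 0 with no replicate block, 4 from the libraries of the 2 sample numbers alone and 0 to 12 with a library left out. In sample 2 against sample 1 it was 96 with DESeq2 and 0 to 0 with a library left out. Among dogs it was 793 with no filter, 1283 with DESeq2 and 79 to 625 with a library or dog left out. In the same fits 4 members were called with no filter, 7 with DESeq2 and 1 to 5 with a library or dog left out. These member counts are not set against the share of all genes called in each fit. With 1 library left out, MYH1 and MYH4 were called among dogs in 13 of 13 fits, MYH2 in 10, MYH8 in 2 (lowest adjusted p = 0.0350), and MYH3 and MYH7B in 1 each.

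The insulin minus basal MYH7 share was -1.82 points with no replicate block (exact permutation p = 0.762) and -2.45 to 2.84 points with a library left out, and the between-dog part of that share was 47.5% to 85.6% with a library or dog left out, 47.5% being the value without dog 4. With no replicate block, log2 fold changes turned for MYH2 (0.14), MYH4 (-0.20) and MYH7 (-0.27) in insulin against basal, MYH1 (-0.29) in sample 1 against sample 0, and MYH2 (0.0179) and MYH8 (0.80) in sample 2 against sample 0. MYH8 in sample 2 against sample 0 turned to 0.0029 with RLE scaling and 0.0089 from the 2 sample numbers alone, and MYH2 in sample 1 against sample 0 to -0.0779 from the 2 sample numbers alone. With a library or dog left out, the ranges of values that turned were, in insulin against basal, -0.24 to 0.28 for MYH7, -0.24 to 0.0516 for MYH1, -0.31 to 0.0429 for MYH2, -0.17 to 0.46 for MYH4 and -0.23 to 0.55 for MYH8. In sample 1 against sample 0 they were -0.0689 to 0.25 for MYH1, -0.16 to 0.25 for MYH2, -0.0342 to 0.26 for MYH3 and -0.29 to 0.81 for MYH8. In sample 2 against sample 0 they were -0.67 to 0.39 for MYH8 and -0.11 to 0.35 for MYH7B, and in sample 2 against sample 1 -1.05 to 0.11 for MYH8. The cause was not tested. Shares per coding length were not computed, since no lengths came with the data used here. The lowest count of a member in any library was 614, so counting error was small beside the spread between libraries.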
